A study of Mus musculus with 7 samples.

Results

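The genes of the mitochondrial ribosomal protein family were followed through a ChIP-seq table of HNF4a binding in mouse liver. Members were all regions that the table assigns to a gene whose symbol begins with Mrpl or Mrps and a digit, and 92 of the 39704 regions met this rule. They belonged to 51 genes, 27 of them Mrpl and 24 Mrps. RefSeq lists 78 protein-coding genes with such symbols, so 27 had no region assigned to them. The table annotates 25 of the 92 regions as promoters, assigned to 24 genes. The other 67 comprised 34 in introns, 21 between genes, 10 in exons and 2 at gene ends. Of the 25, 3 are annotated to the promoter of another gene (Hira, Ska3 and Gga3). Of the 34, 15 lie in an intron of another gene.

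AMPKCA mice, described in the study's design as having constitutively active AMPK, were compared with wild-type (WT) mice. Both genotypes ate a high fat diet with doxycycline for 14 days, so the diet and the drug are shared by all 6 libraries. Each genotype had 3 liver libraries, 1 in each of batches 1, 2 and 3 of the labels, precipitated with antibody ab41898. The labels do not give the promoter or cell type that drives the AMPK allele, nor the animals' age or sex, and the pooled input library was not analysed here.

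The mitochondrial ribosome translates the messenger RNAs of the mitochondrial genome, all of which encode subunits of the oxidative phosphorylation machinery. Its proteins are encoded in the nucleus, with most Mrpl products in the large subunit and most Mrps products in the small one, and promoters of such genes are known for sites of NRF1, of the ETS factor GABP and of YY1. HNF4a is a nuclear receptor that maintains hepatocyte gene expression, and AMPK is a kinase that responds to low cellular energy and is known to promote mitochondrial biogenesis.

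Promoter sequences are shown first for 5 members, because the values below return to them. They are RefSeq windows of build GRCm38.p6, running from 250 bases before to 50 bases after a start site, 5′ to 3′ on the gene's strand. The promoter region of Mrpl48 had the smallest p among promoter members, that of Mrpl17 was lower in AMPKCA in every batch, that of Mrpl34 had the highest signal per kb, and the windows of Mrpl11 and Mrpl37 hold the HNF4 letters. Capitals mark matches to the letters CAAAGNNCA (HNF4), GCGC, any base and TGCGC in a row (NRF1), CCGGAAG (ETS) or ATGGCGG (YY1), searched on both strands, and no marked matches overlap.
Mrpl48 (chr7:100608252-100608551, minus strand): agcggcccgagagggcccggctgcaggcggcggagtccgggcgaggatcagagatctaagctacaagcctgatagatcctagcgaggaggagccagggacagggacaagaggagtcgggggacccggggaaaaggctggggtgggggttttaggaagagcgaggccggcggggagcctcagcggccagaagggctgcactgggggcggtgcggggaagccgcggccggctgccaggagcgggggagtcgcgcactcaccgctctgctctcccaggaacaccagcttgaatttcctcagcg
Mrpl17 (chr7:105811038-105811337, minus strand): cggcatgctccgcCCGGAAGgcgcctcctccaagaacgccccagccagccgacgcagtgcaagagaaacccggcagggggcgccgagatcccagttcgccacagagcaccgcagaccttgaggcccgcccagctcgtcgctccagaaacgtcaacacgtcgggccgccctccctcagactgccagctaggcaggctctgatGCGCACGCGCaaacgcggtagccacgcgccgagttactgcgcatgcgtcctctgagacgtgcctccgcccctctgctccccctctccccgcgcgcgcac
Mrpl34 (chr8:71464676-71464975, plus strand): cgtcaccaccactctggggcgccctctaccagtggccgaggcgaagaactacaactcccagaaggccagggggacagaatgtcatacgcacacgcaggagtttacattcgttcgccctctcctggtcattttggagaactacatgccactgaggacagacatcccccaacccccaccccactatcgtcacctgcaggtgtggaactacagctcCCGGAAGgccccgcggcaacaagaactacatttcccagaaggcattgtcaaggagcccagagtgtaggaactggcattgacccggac
Mrpl11 (chr19:4962056-4962355, plus strand): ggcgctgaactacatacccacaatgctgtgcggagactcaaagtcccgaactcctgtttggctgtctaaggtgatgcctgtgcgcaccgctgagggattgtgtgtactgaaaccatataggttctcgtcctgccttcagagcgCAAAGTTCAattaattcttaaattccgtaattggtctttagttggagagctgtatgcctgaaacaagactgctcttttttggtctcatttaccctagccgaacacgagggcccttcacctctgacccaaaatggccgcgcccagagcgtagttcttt
Mrpl37 (chr4:107066817-107067116, minus strand): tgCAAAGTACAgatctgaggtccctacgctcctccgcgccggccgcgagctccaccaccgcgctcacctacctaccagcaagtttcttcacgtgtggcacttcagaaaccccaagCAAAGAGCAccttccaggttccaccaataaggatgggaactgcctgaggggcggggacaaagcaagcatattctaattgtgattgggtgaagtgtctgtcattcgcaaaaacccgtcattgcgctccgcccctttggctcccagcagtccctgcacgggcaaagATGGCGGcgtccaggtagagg

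The Mrpl11 window holds the HNF4 letters 107 bases upstream of the start site, and the Mrpl37 window holds them 248 and 135 bases upstream, with the YY1 letters 29 bases downstream. The Mrpl17 window holds the NRF1 letters 49 and the ETS letters 237 bases upstream. The Mrpl34 window holds the ETS letters 37 bases upstream. None of the searched letters occur in the Mrpl48 window shown, which is the one nearest to the middle of its promoter region among several start sites that RefSeq lists. The window of another Mrpl48 start site lies head to head with the start of Rab6a, a vesicle transport gene, so signal there cannot be divided between both genes.

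RefSeq windows were found for 45 of the 51 member genes, and a region of the table overlapped a window of 38 of them. Counting also family members to which the table assigns no region, 53 of 75 windows (70.7%) were overlapped, against 34.3% of all protein-coding windows. They belong to 48 of 69 genes (69.6%), against 36.0% of all protein-coding genes with a window. Of these 53 windows, 5 (9.43%) held the HNF4 letters, against 5.78% of all 7283 protein-coding windows overlapped by a region. Overlapping windows of Mrpl2 count the same match repeatedly. By gene the letters were at 3 of the 48, namely Mrpl2, Mrpl11 and Mrpl37, and no share by gene was computed over all overlapped windows. The NRF1 letters were in 12 (22.6%), against 12.2% of all overlapped windows, and the ETS letters in 17 (32.1%), against 19.5%. The YY1 letters were in 6 (11.3%), against 8.69%. Of the 22 family windows that no region overlapped, 9 (40.9%) held the ETS letters and 7 (31.8%) the YY1 letters. Over all 21263 protein-coding windows, overlapped or not, these letters were in 11.6% and 5.25%. The NRF1 letters were in 1 of the 22 (4.55%) and the HNF4 letters in 0, against 6.38% and 5.75% of all protein-coding windows. No share was computed over all windows without a region, so these counts do not separate windows with and without one. Another gene started within 1 kb in the opposite direction at 19 of the 53 windows (35.8%), against 15.4% of all overlapped windows. These shares describe letters and positions, and windows of 1 gene can overlap each other. Family windows held a median of 21 CG dinucleotides, and those without a region 21.5. The median was 13 over all protein-coding windows and 23 over those overlapped by a region. Whether base composition bears on the overlap was not tested.

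The 6 libraries held 536027 to 1622087 reads in regions, and the members took 0.189% to 0.227% of them. Values are the authors' normalized reads per region, not divided by length. The median member region had 11 to 21.5 reads in an AMPKCA library and 9.5 to 32.5 reads in a WT library. Promoters took 11.7% to 14.2% of the reads in the 3 AMPKCA libraries and 12.1% to 13.4% in WT replicates 2 and 3, but 19.4% in WT replicate 1. All 10 hepatocyte marker genes examined had regions within 50 kb of their start sites. So had 3 of 5 cholangiocyte and 4 of 4 endothelial markers, and none of 4 Kupffer cell and none of 4 stellate cell markers had one. The strongest region of each marker had a median of 94.6 normalized reads per kb for hepatocyte markers. This median was 54.9 for endothelial markers and 35.8 for the cholangiocyte markers that had a region. The share of all genes with a region within 50 kb was not computed. In whole liver, fewer cells with a bound site and less binding per cell cannot be told apart.

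Members were of middling strength among HNF4a regions. Their median signal, averaged over the 6 libraries, was 31.2 normalized reads per kb of region, against 33.3 over all regions. Promoter members had a median of 29.6, against 28.8 over all promoters. The 21 other members within 1 kb of a start site had 31.1, against 26.9 over all such regions, and the 46 members farther out had 35.9, against 35.6. At promoters 7 of 25 members were above the median of all regions, as were 7 of the 21 nearby and 24 of the 46 more distant members. That median of 33.3 lay above the medians given for all promoters and all nearby regions, and below their upper quartiles of 36.8 and 33.6.

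The strongest member lay in exon 2 of Mrpl4 (chr9:21002632-21003627 in mm10, 0.393 kb from the start site), at 87.6 normalized reads per kb, above 96.9% of all regions. Mrpl4 encodes a large-subunit protein near the exit tunnel. Its values were 82.1, 99.9 and 59.7 normalized reads in AMPKCA batches 1, 2 and 3, against 140.7, 71.1 and 70.1 in WT. The order of the genotypes thus turned between batches, and the log2 fold change was -0.17 ± 0.24 (SE). The next strongest lay between genes, 10.8 kb upstream of Mrpl39 (chr16:84745700-84746443), at 83.5 normalized reads per kb. It had 56.3, 66.9 and 54.2 normalized reads in AMPKCA and 49.4, 83.1 and 62.9 in WT, and the groups overlapped. An intron 1 region of Mrpl14 (chr17:45693712-45694561) and a region 46.2 kb from Mrpl37 inside an intron of Ssbp3 (chr4:107020285-107021016) each had 64.2 normalized reads per kb. At promoters, Mrpl34 was strongest with 48.9, followed by Mrps33 with 39.9 and by Mrpl11, whose product sits at the base of the ribosomal stalk, with 39.8. The weakest promoter members were Mrps12, whose product belongs to the decoding site, with 21.1, Mrps14 with 23.7 and Mrpl48 with 23.997 normalized reads per kb.

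**Figure D1:**
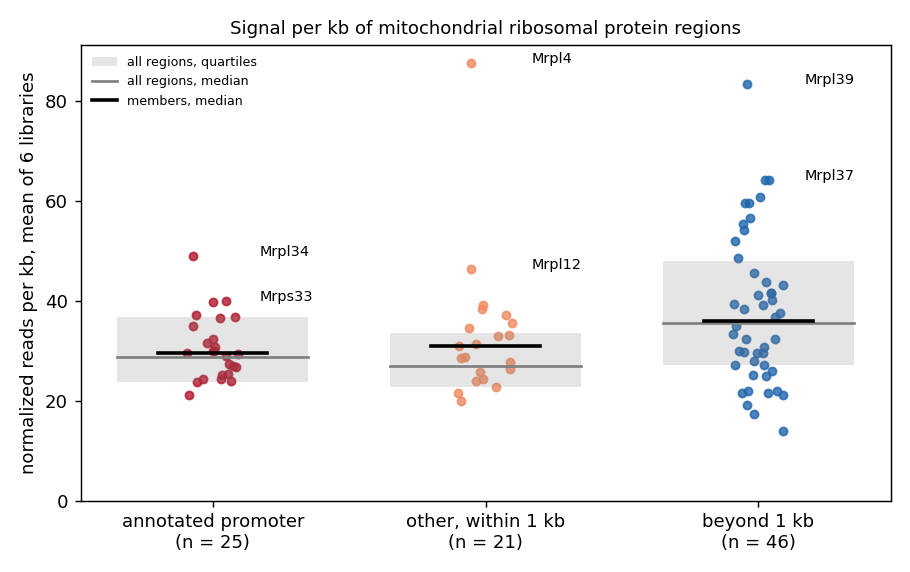
Signal per kb of each of the 92 regions (normalized reads per kb, mean of 6 libraries; points), by position, with the members' median (black line) and the median and quartiles of all regions of the same kind (grey). Promoter members have a median of 29.6 against 28.8 over all promoters, and the 2 points above 80 belong to Mrpl4 and Mrpl39.

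No member region passed the test for a genotype difference. Limma with batch as a block and Benjamini-Hochberg adjustment over all regions gave none of the 92 an adjusted p under 0.05, where 0.0579% of all regions passed (0.0382% of promoters and 0.0609% of the others). The smallest adjusted p among members was 0.478 with limma, and 0.555 with edgeR's quasi-likelihood test on the recovered reads. At an unadjusted p under 0.05, limma picked 1 promoter member as lower in AMPKCA, against 6.95% of all promoters, and none as higher, against 0.974%. Of the 67 other members it picked 3 as higher, against 4.59% of all other regions, and none as lower, against 2.59%. Without batch 3, 2 promoter members had such a p and a lower value, against 5.69% of all promoters. EdgeR picked 1 promoter member as lower, against 6.88% of promoters, and 4 others as higher, against 3.83% of others. DESeq2 picked 1 lower promoter member and 1 higher other member, against backgrounds of 2.35% and 1.1%. The members' shares are thus near those of all regions.

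At promoters, AMPKCA values were mostly below WT values in batch 1, and the batches differed. In batch 1, 21 of 25 promoter members were lower in AMPKCA than in WT, against 84.9% of all promoters. The counts were 14 of 25 in batch 2 and 13 of 25 in batch 3, against 54.0% and 54.8% of all promoters. The median within-batch difference, AMPKCA minus WT on the log2(value + 1.80) scale, was -0.54, -0.27 and -0.03 in batches 1, 2 and 3. Over all promoters it was -0.60, -0.06 and -0.09. In normalized reads per kb, the median promoter member had 29.0, 21.1 and 29.7 in AMPKCA, against 46.3, 25.5 and 29.6 in WT. WT replicate 1 stands above the other 5 libraries here, as it does in its share of reads at promoters.

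Over the 3 batches the median log2 fold change of promoter members was -0.14, against -0.23 over all promoters, and 17 of 25 (68.0%) had a negative value, against 73.9%. Without batch 1 the median was -0.02, against -0.07 over all promoters, and 14 of 25 (56.0%) had a negative value, against 56.6%. No promoter member had all AMPKCA values below or above all WT values, where 5.2% of all promoters did in the lower and 0.764% in the higher direction. All 3 batches had a lower AMPKCA value at 5 promoter members, against 25.3% of all promoters, and a higher one at none, against 3.53%.

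The 21 other members within 1 kb of their start sites, most of them just downstream in a first exon or intron, were also mostly lower in AMPKCA in batch 1. AMPKCA was lower in 19 of 21 in batch 1, in 13 in batch 2 and in 12 in batch 3, against 90.4%, 55.2% and 54.7% of all such regions. Their median log2 fold change was -0.29, against -0.26 over all such regions, and -0.24 without batch 1, against -0.08. Without batch 1, 11 of the 21 were negative, against 56.5% of all such regions. In normalized reads per kb their median was 36.3, 21.5 and 22.9 in AMPKCA, against 50.4, 19.6 and 27.2 in WT. The 46 members beyond 1 kb had no such majority in batch 1. AMPKCA was lower in 18 of 46 in batch 1, in 25 in batch 2 and in 23 in batch 3, against 40.4%, 50.1% and 48.4% of all such regions. Their median log2 fold change was 0.02, against 0.09 over all such regions, and -0.07 without batch 1, against 0.01.

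**Figure D2:**
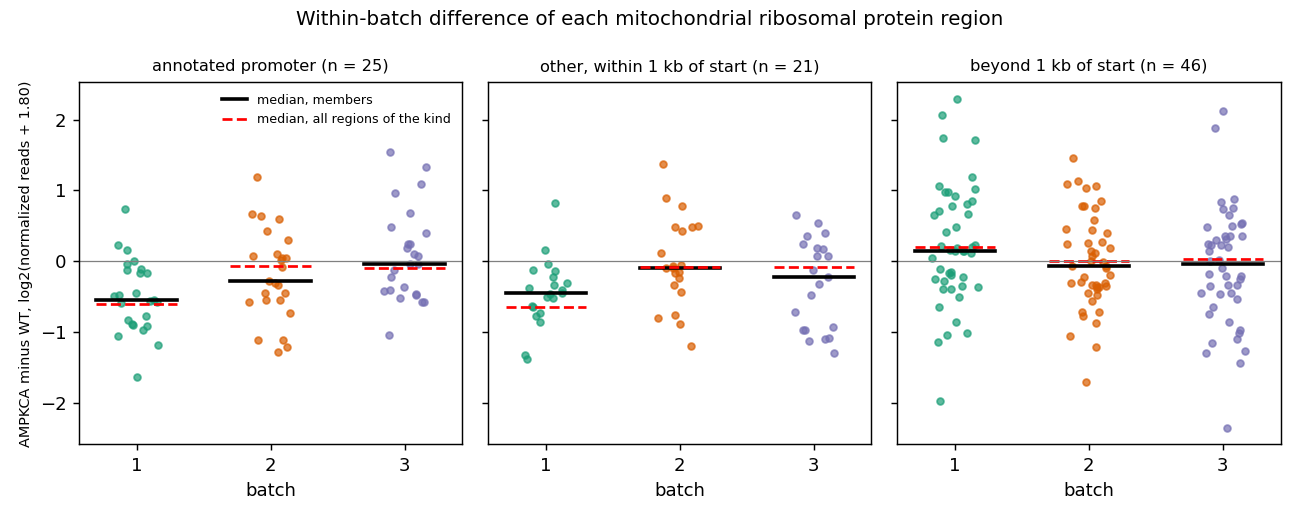
Within-batch difference of each region (AMPKCA minus WT, log2(normalized reads + 1.80); points) in batches 1, 2 and 3, with the median of the members (black) and of all regions of the same kind (red, dashed). In batch 1 the promoter members have a median of -0.54 and the nearby ones of -0.45, while batches 2 and 3 lie closer to 0 at promoters and the 46 distant members have a median of 0.15 in batch 1.

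The promoter region of Mrpl48, which encodes a large-subunit protein, had the smallest p among promoter members (chr7:100607203-100608866). It had 47.5, 12.6 and 23.6 normalized reads in AMPKCA batches 1, 2 and 3, against 90.7, 29.2 and 35.9 in WT. AMPKCA was lower in each batch, but the AMPKCA value of batch 1 exceeded the WT values of batches 2 and 3, so the groups overlapped. Means were 27.9 ± 17.8 in AMPKCA and 52.0 ± 33.7 in WT (SD, n = 3 each). The log2 fold change was -0.86 ± 0.32 (SE), with an adjusted p of 0.486 in limma, and -0.84 when batch 1 was left out. It was -0.38 without WT replicate 1 and -0.43 without AMPKCA replicate 2, both without the block. This region has, in the authors' deposited table, a score of -2.40, where the score is the log2 mean ratio times -log10 of an unadjusted p-value.

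Mrpl17, Mrpl34, Mrps7 and Mrpl40 were the other promoter members lower in AMPKCA in every batch, and none passed the test. The Mrpl17 promoter region (chr7:105810862-105811392) had 11.3, 8.73 and 13.9 normalized reads in AMPKCA, against 25.3, 13.5 and 21.6 in WT, a log2 fold change of -0.72 ± 0.42. The groups overlapped only through the AMPKCA value of batch 3 and the WT value of batch 2. Mrpl34, whose product has a bacterial counterpart in the large subunit, had 62.8, 46.6 and 36.1 normalized reads in AMPKCA (chr8:71464408-71465606), against 95.4, 59.2 and 52.1 in WT. Its log2 fold change was -0.48 ± 0.27. Mrps7, whose product binds ribosomal RNA in the head of the small subunit, had 40.2, 17.5 and 27.8 normalized reads in AMPKCA (chr11:115603509-115604638), against 59.4, 26.2 and 37.7 in WT. Its log2 fold change was -0.50 ± 0.33, and the table annotates that region to the promoter of the neighbouring Gga3. The Mrpl40 region (chr16:18876449-18876837), at the promoter of Hira, had 8.85, 4.85 and 15.3 normalized reads in AMPKCA and 18.01, 5.24 and 21.6 in WT. In the authors' deposited table, 4 of the 25 promoter members have a score below -0.75, namely Mrpl48, Mrps7, Mrpl17 and Mrpl34, against 15.1% of all promoters, and none have a score above 0.75, against 2.25%.

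Other promoter members went in different directions in different batches. Mrps23 had 10.5, 7.76 and 20.8 normalized reads in AMPKCA, against 26.01, 5.99 and 7.19 in WT, so that batch 1 was lower and batches 2 and 3 were higher in AMPKCA. Mrps14 had 9.66, 7.76 and 13.9 normalized reads in AMPKCA and 20.7, 4.49 and 3.60 in WT, the same order. Its WT value of batch 3 rests on 2 reads. Mrpl11, which holds the HNF4 letters in its window, had 20.1, 14.6 and 16.7 in AMPKCA and 11.3, 17.97 and 35.9 in WT, the opposite order. Mrpl37, whose window also holds them, had 33.0, 33.0 and 29.2 in AMPKCA and 46.7, 13.5 and 34.2 in WT. The promoter regions of Mrps31, with a log2 fold change of 0.07 ± 0.36, and Mrpl42, with 0.05 ± 0.44, had values of both signs across the batches.

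**Figure D3:**
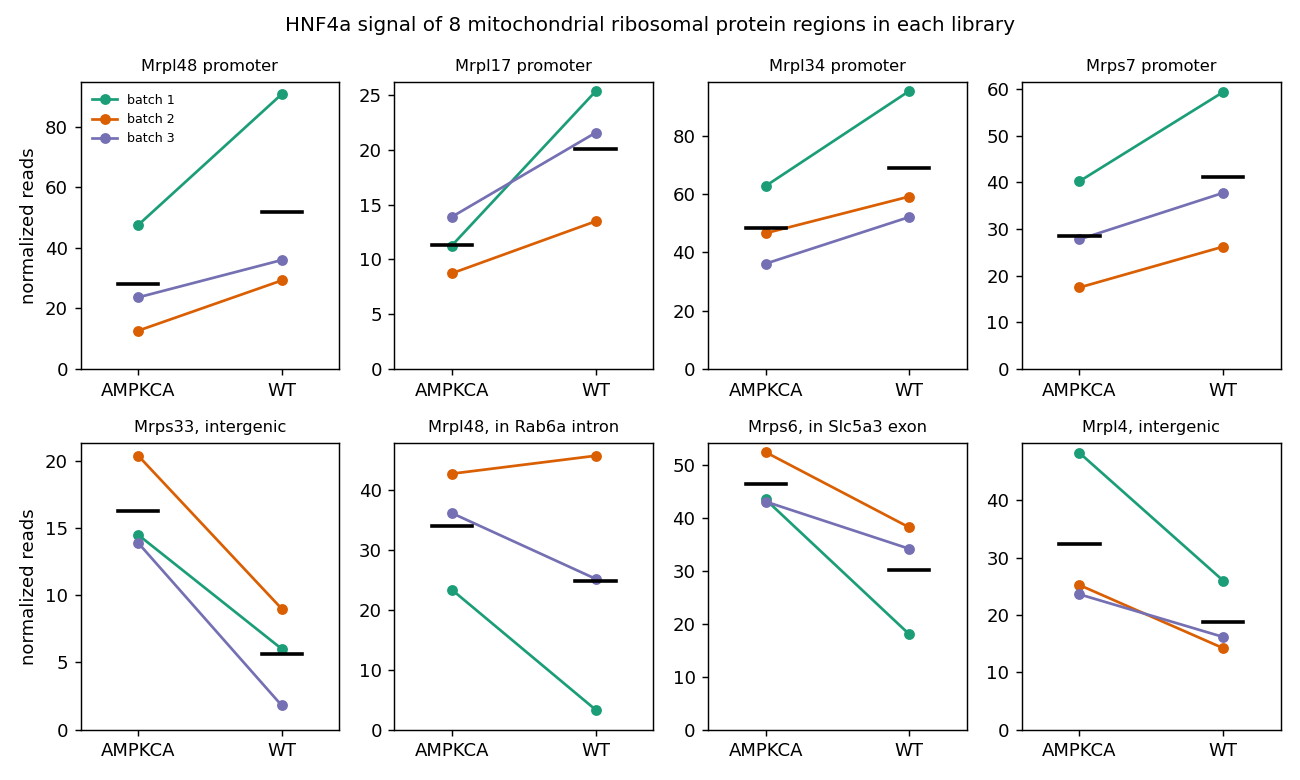
Normalized reads of 8 named regions in each library, AMPKCA at left and WT at right in each panel, with lines joining the libraries of 1 batch and black bars at the group means (n = 3 each). The 4 promoter regions in the upper row are lower in AMPKCA in every batch, and of the 4 in the lower row only the Mrps33 and Mrps6 regions have groups that do not overlap.

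Among regions within 1 kb outside annotated promoters, 7 of 21 were lower in AMPKCA in every batch, against 27.0% of all such regions, and 1, at exon 1 of Mrpl44, was higher, against 2.24%. The region at intron 1 of Mrps5, a small-subunit gene (chr2:127587036-127588133), had 45.9, 27.2 and 13.9 normalized reads in AMPKCA, against 66.0, 32.2 and 32.4 in WT. Its log2 fold change was -0.62 ± 0.32, with an adjusted p of 0.696 in limma. An intron 2 region of Mrps2 (chr2:28468537-28468834) had 12.1, 1.94 and 11.1 in AMPKCA and 13.3, 6.74 and 23.4 in WT, with a log2 fold change of -0.76 ± 0.50. Its AMPKCA value of batch 2 rests on 2 reads. Mrpl12 encodes a stalk protein that also binds the mitochondrial RNA polymerase. Its exon 2 region (chr11:120484382-120486117) had 83.7, 78.6 and 41.7 normalized reads in AMPKCA, against 140.1, 57.7 and 80.9 in WT, and batch 2 went against the other batches.

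The member region with the smallest p lay between genes, 14.4 kb from the start of Mrps33, a small-subunit gene (chr6:39796336-39796704). It had 14.5, 20.4 and 13.9 normalized reads in AMPKCA, against 6.003, 8.99 and 1.797 in WT. Every AMPKCA value was above every WT value, with means of 16.3 ± 3.58 in AMPKCA and 5.596 ± 3.61 in WT (SD, n = 3 each). The log2 fold change was 1.41 ± 0.51, with an adjusted p of 0.478 in limma, and 1.58 without batch 1. The WT value of batch 3 rests on 1 read. The Mrps33 promoter region on the same chromosome went the other way, with 16.9, 8.73 and 15.3 normalized reads in AMPKCA and 31.4, 22.5 and 14.4 in WT, and its log2 fold change of -0.65 ± 0.40 did not pass the test. At the other 2 Mrps33 regions the log2 fold changes were -0.41 ± 0.53 and 0.28 ± 0.57.

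An exon of Slc5a3, an inositol transporter gene that overlaps Mrps6, held a region assigned to Mrps6 (chr16:92076472-92077100). It had 43.5, 52.4 and 43.1 normalized reads in AMPKCA, against 18.01, 38.2 and 34.2 in WT, without overlap. Its log2 fold change was 0.65 ± 0.31, with an adjusted p of 0.667 in limma, and 0.38 without batch 1. A region 7.69 kb upstream of Mrpl4 (chr9:20994832-20995261) had 48.3, 25.2 and 23.6 in AMPKCA and 26.01, 14.2 and 16.2 in WT. It was higher in AMPKCA in each batch, though the WT value of batch 1 exceeded the AMPKCA values of batches 2 and 3, and its log2 fold change was 0.70 ± 0.36. In intron 1 of Rab6a, 4.97 kb upstream of Mrpl48 (chr7:100612709-100613227), a region had 23.3, 42.7 and 36.1 normalized reads in AMPKCA, against 3.34, 45.7 and 25.2 in WT. The log2 fold change of 0.90 ± 0.36 there rested on the low value of WT replicate 1, since it was 0.20 without batch 1 and -0.04 without that library and without the block.

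Over the 67 other members, all 3 batches had a lower AMPKCA value at 13, against 13.0% of all other regions, and a higher one at 8, against 15.0%. Groups did not overlap at 5 of them. Lower in AMPKCA were an intron 2 region of Mrps27, a region 16.7 kb upstream of Mrpl48 and one 6.199 kb upstream of Mrpl45, against 2.97% of all other regions. Higher were the Mrps33 and Mrps6 regions described above, against 5.22%. In the authors' deposited table, 3 of the 67 have a score below -0.75 (Mrpl15, Mrps2 and Mrps5), against 7.15% of all other regions. A score above 0.75 in the authors' deposited table is held by 3 (Mrpl4, Mrps33 and Mrpl48), against 9.95%.

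**Figure D4:**
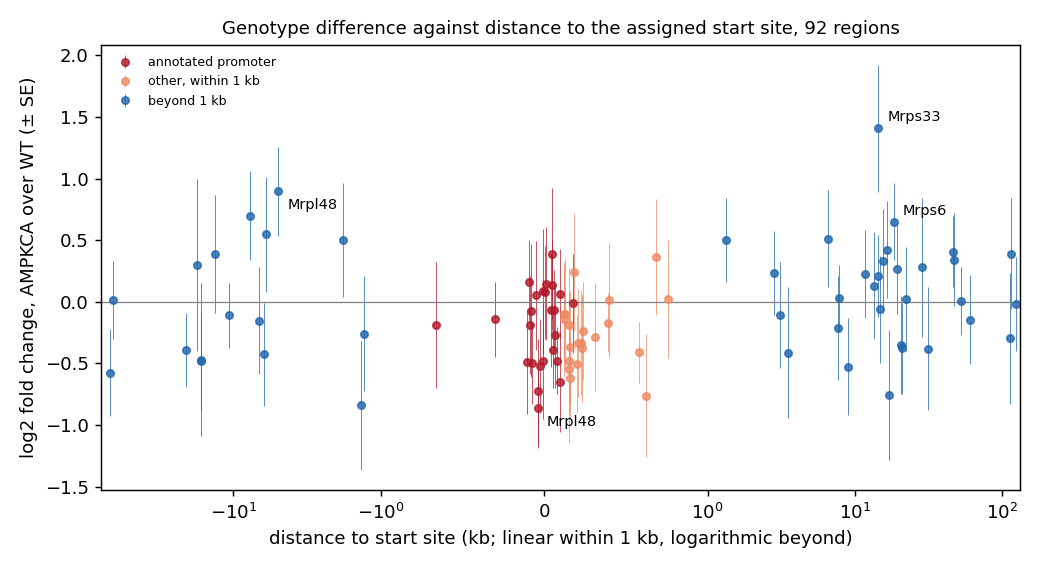
Log2 fold change (AMPKCA over WT, ± SE) of the 92 regions against distance to the assigned start site in kb, coloured by position. Named are the 4 regions with an unadjusted limma p under 0.05, of which the Mrpl48 promoter is lower and the regions of Mrps33, Mrps6 and Mrpl48 beyond 1 kb are higher in AMPKCA.

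Regions assigned to 1 gene could hold values of both signs. Of the member genes, 32 had 1 region and 10 had 3 or more. Mrpl15 had 8 regions, with log2 fold changes between -0.76 ± 0.53 (17.2 kb away) and 0.55 ± 0.47 (6.005 kb upstream). Some of them lie 114 to 124 kb from Mrpl15, between genes, and carry its name only by assignment. Mrpl48 had 5 regions, from -0.86 at its promoter to 0.90 in the Rab6a intron. The 5 regions of Mrpl37, of which 4 lie in introns of Ssbp3, had log2 fold changes between -0.14 ± 0.36 and 0.41 ± 0.29. The 5 of Mrpl14 lay between -0.52 ± 0.38 at its promoter and 0.26 ± 0.37 at 19.4 kb. Values of both signs also stood side by side at Mrps33, Mrpl4, Mrpl45, Mrps23, Mrps24 and Mrps31.

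The family names split the members by subunit. The 16 promoter regions of Mrpl genes had a median log2 fold change of -0.19, and 12 of them were negative, against -0.06 and 5 of 9 for Mrps genes. Without batch 1 these medians were -0.21 for Mrpl and 0.02 for Mrps promoters. The difference between the subunits was not tested. Despite their symbols, the products of Mrps30 and Mrps18a sit in the large subunit, and the product of Mrps36 is a component of the 2-oxoglutarate dehydrogenase complex. Their regions within 1 kb had log2 fold changes of 0.02 ± 0.46 for Mrps30, -0.06 ± 0.47 for Mrps18a and -0.33 ± 0.44 for Mrps36.

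Other genes of mitochondrial translation were examined for comparison. Of 66 listed genes (assembly factors, translation factors, mitochondrial aminoacyl-tRNA synthetases, transcription factors of the mitochondrial genome and ribosomal proteins under other names), 48 had 97 regions, and none had an adjusted p under 0.05 in limma. At an unadjusted p under 0.05, 2 of their 27 promoter regions were lower in AMPKCA, against 6.95% of all promoters. Of their 70 other regions 2 were lower, against 2.59% of all other regions, and 2 were higher, against 4.59%. Their promoter regions had a median log2 fold change of -0.19, and -0.14 without batch 1. The promoter region of Gfm1, which encodes the mitochondrial elongation factor G1 that moves the ribosome along its messenger RNA, had 12.9, 6.79 and 1.39 normalized reads in AMPKCA (chr3:67429837-67430313), against 19.3, 15.7 and 21.6 in WT. The AMPKCA value of batch 3 rests on 1 read. Groups did not overlap, as at 2 of the 27 promoter regions of these genes, against 5.2% of all promoters in that direction. The log2 fold change of the Gfm1 region was -1.48 ± 0.48, with an adjusted p of 0.371 in limma. Mterf3 acts in ribosome assembly, and its promoter region (chr13:66933236-66933765) had 12.9, 3.88 and 6.95 normalized reads in AMPKCA, against 23.3, 6.74 and 23.4 in WT. Its log2 fold change was -0.96 ± 0.47, with an adjusted p of 0.672 in limma.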

How the data were processed

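The members and gene lists were chosen with earlier results of these data known. HOMER, SICER, MACS2, deepTools, BWA, Picard, SAMtools, FastQC and Trim Galore are named in the submitters' processing notes, as are builds GRCm38 and mm10. The sources used here do not give the tools' roles or versions, nor how regions were selected. The deposited signal is reads per region over 1 factor per library: 100% of the values were whole multiples (tolerance 1e-09) of that library's lowest non-zero value, and these recovered reads served the count tests. The authors also deposited a ratio per experiment, the mean ratio, its log2, a p-value and a score, and their ratio columns 2 and 3 hold experiments 3 and 2.

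The test, as planned for normalized values, was limma 3.58.1 (R 4.3.3) on log2(value + 1.80) with genotype and batch as terms, a mean-variance trend, a robust prior and Benjamini-Hochberg adjustment over 39704 regions. The pseudocount is 0.1 times the median of non-zero values, and fold changes on this scale understate changes of weak regions. Batch comes from the labels and pairs the libraries. Deviations of same-batch libraries correlated across regions with r of 0.53 in batch 1, 0.49 in batch 2 and 0.05 in batch 3. Between libraries of different batches r ran from -0.49 to 0.11. The value of 0.11, for AMPKCA replicate 2 with WT replicate 3, was above that of the batch 3 pair. EdgeR 4.0.16, DESeq2 1.42.0, other pseudocounts and scalings, a filter, no batch term and left-out libraries were alternatives. The fit was tested on simulated data with large changes planted in regions at or above the median mean. That simulation held no smaller changes and no shift of promoters like that of batch 1, so it does not bear on these. No libraries were duplicates (the lowest chi-square over degrees of freedom was 1.63). Library codes differ, but the labels do not call them separate animals. P-values of the blocked limma fit thus measure the spread of the within-batch differences of these libraries, moderated by the prior. Those of limma without the block measure the spread between libraries of a genotype.

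Named were member regions with an unadjusted p under 0.05, those with the smallest p and 1 sign in all batches, the strongest and weakest, genes with 3 or more regions and regions with a deposited score beyond -0.75 or 0.75. Gfm1 and Mterf3 were named as listed translation genes with an unadjusted p under 0.05 at a promoter. Other regions named (Mrpl40, Mrpl42, Mrpl44, Mrpl12, Mrps27, Mrps30, Mrps18a and Mrps36) were chosen after their values were seen.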

Additional observations from a re-analysis of the deposited data

How the results depend on the processing

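The count of members with an adjusted p under 0.05 was 0 in every setting run. The promoter count at an unadjusted p under 0.05 was 0 with no replicate block, and with libraries left out it ran from 0 (without AMPKCA replicate 2 or 3 or WT replicate 1 or 3, no block) to 2 (without batch 3). The count of other members was 1 with DESeq2, 1 without the mean-variance trend and 1 with no replicate block, and with libraries left out it ran from 0 (without AMPKCA replicate 2 or 3 or WT replicate 3) to 5 (without WT replicate 2). With no replicate block, the smallest adjusted p among members was 1.0. The median log2 fold change of promoter members stayed negative in all settings, from -0.39 without batch 3 to -0.02 without batch 1. The median of the other members was -0.15 with DESeq2, -0.015 over regions at or above the median mean, -0.054 with total read scaling and 0.018 when regions within 1 kb were moved to the promoters. With a batch left out it ran from -0.094 (without batch 2) to -0.029 (without batch 3). With 1 library left out and no block it was -0.19 without WT replicate 2, -0.051 without AMPKCA replicate 2, -0.0020 without AMPKCA replicate 3 and -0.00019 without WT replicate 1. The log2 fold change was followed for 29 regions, and 18 had the same sign in every setting run. With all libraries kept, the Mrps30 region was the exception among the 29, at -0.054 with DESeq2 and -0.058 with edgeR. Over all 92 members 9 regions changed sign with all libraries kept, none with a value beyond 0.15, and 54 changed sign in at least 1 setting. With a batch left out, the values ran from -0.34 to 0.12 for the Mrpl2 start site, -0.21 to 1.10 for Mrpl15 at 6.005 kb, -0.36 to 0.21 for Mrpl37 at 60.4 kb, -0.49 to 0.13 for Mrpl4 exon 2, -0.043 to 0.14 for the Mrpl42 promoter, -0.22 to 0.14 for Mrps18a, -0.25 to 0.19 for Mrps30 and -1.01 to 0.23 for Mrps33 at 3.535 kb. With 1 library left out and no block, other signs appeared as follows. Without WT replicate 1, Mrpl48 in Rab6a had -0.037, Mrpl2 0.17, Mrpl15 -0.33, Mrpl4 exon 2 0.16, Mrps18a 0.13 and the Mrps31 promoter -0.057. Without WT replicate 2, Mrpl42 had -0.044, Mrps30 -0.29 and Mrps31 -0.050, and without WT replicate 3, Mrpl37 had 0.046 and Mrps30 -0.12. Without AMPKCA replicate 1, Mrps30 had -0.26. Without AMPKCA replicate 2, Mrpl14 at 19.4 kb had -0.090, Mrps18a 0.13 and Mrps33 0.059. Without AMPKCA replicate 3, Mrpl37 had 0.021, Mrpl4 exon 2 0.026, Mrpl42 -0.058, Mrps30 -0.11 and Mrps31 -0.12. The causes were not tested. A median of 9.5 to 32.5 reads per region and library limits what could be detected, so differences that missed the threshold are not shown to be absent.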

Other observations

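The assignment of regions to genes leaves out start sites of the family. At 14 family genes a region of the table overlapped the RefSeq window of the start site but was assigned to another symbol, and 10 of these genes had no region of their own by the naming rule. For 13 the symbol is that of another gene, and the exception is Mrpl58, a peptidyl-tRNA hydrolase in the ribosome that the table lists under its older name Ict1. The 13 include Mrpl2 (assigned to Klc4), Mrpl47 (assigned to Ndufb5, a complex I gene) and Mrpl32 (assigned to Psma2, a proteasome gene). Of the 14 regions, 13 are annotated as promoters, and the one at a start site of Mrpl48 is annotated as an intron. The log2 fold change was negative at 13 of the 14, with a median of -0.32, against 73.9% and -0.23 over all promoters. Without batch 1 it was negative at 10 of 14, with a median of -0.05, against 56.6% and -0.07. Medians within batches 1, 2 and 3 were -0.72, -0.07 and -0.10. None had an adjusted p under 0.05 in limma with the batch block, and 1 had an unadjusted p under 0.05 and a lower value, against 6.95% of all promoters. That region, at the shared start of Psma2 and Mrpl32 (chr13:14613014-14613493), had 15.3, 15.5 and 2.78 normalized reads in AMPKCA, against 28.02, 11.2 and 19.8 in WT. Batch 2 went against the other batches, and the AMPKCA value of batch 3 is below that of 3 reads in its library (4.17). The Mrpl2 region (chr17:46644678-46646547), whose window holds the HNF4 letters, had 94.2, 80.5 and 88.9 normalized reads in AMPKCA and 156.8, 70.4 and 86.3 in WT, with a log2 fold change of -0.16, and 0.12 without batch 1.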
